A study of Mus musculus with 43 samples.

Results

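Transcripts of 10 genes of the circadian clock, Dbp, Per1, Per2, Per3, Nr1d1, Nr1d2, Ciart, Tef, Clock and Cry1, were followed in glia purified from the cerebral cortex of immunodeficient mice and their immunocompetent littermates. The rule that picks the genes names them and uses no measured value, although the set was drawn up with earlier results of these data known, and they are 10 of the 55416 genes counted in each of 43 libraries. Each library held RNA of 1 cell type from 1 mouse. Astrocytes and microglia each came from 6 control and 6 Rag2-/- mice, oligodendrocyte precursor cells (OPCs) from 6 and 5, and oligodendrocytes from 4 and 4.

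All mice were 3 months old and descended from the constitutive Rag2 tm1.1Cgn line crossed to C57BL/6J. Rag2-/- mice lack mature T and B cells, because Rag2 is needed to assemble antigen receptor genes, and the deletion is present in every cell of the body. The 12 mice were 6 numbered littermate pairs, each of 1 control and 1 Rag2-/- mouse. The controls were Rag2+/- in pairs 1, 2, 3 and 5 and Rag2+/+ in pairs 4 and 6. Both mice were male in pairs 1, 3 and 4 and female in pairs 2 and 5, and pair 6 joined a male control with a female Rag2-/- mouse. Oligodendrocytes came from pairs 1, 3, 5 and 6, and OPCs of the Rag2-/- mouse of pair 5 were not analysed here. The cells were taken by immunopanning, in which a cortical suspension passes over plates coated with antibodies to CD45 for microglia, PDGFRα for OPCs, GalC for oligodendrocytes and HepaCAM for astrocytes, in that order. All libraries of a cell type shared 1 sequencing lane, so cell type, lane and place in the panning order cannot be told apart. The time of day at which each mouse was killed and the lighting schedule are not given in the sources used here.

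The libraries held 6499417 to 23118497 counts on genes, with a median of 10447042. Rag2 itself had 0 counts in all 21 Rag2-/- libraries, and 6 counts in all over the 22 control libraries, so it was near absent from control glia too and checks the genotype labels only weakly. Summed astrocyte markers were 18170 to 22230 CPM (read counts scaled to a common library size) in astrocytes and at most 7540 elsewhere. Microglia markers were 9423 to 11950 CPM in microglia and at most 1075 elsewhere, and oligodendrocyte markers were 6777 to 9554 CPM in oligodendrocytes and at most 3441 elsewhere. OPC markers were 4343 to 6052 CPM in OPCs and at most 680.7 elsewhere. Neuron markers reached 1884 CPM in oligodendrocyte libraries and 817.4 in OPC libraries, against at most 347.3 in astrocytes and 121.9 in microglia.

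The circadian clock is a loop of transcription and its repression that runs in most cells of the body with a period of about a day. The proteins CLOCK and BMAL1 bind E-box sequences and switch on the Per and Cry genes, whose products return to the nucleus and inhibit CLOCK and BMAL1. A second arm is formed by the nuclear receptors REV-ERBα (Nr1d1) and REV-ERBβ (Nr1d2), which repress Bmal1 and Clock through RORE sequences. The output factors DBP and TEF activate genes through D-box sequences, and CIART (also called CHRONO) represses CLOCK and BMAL1. Transcripts of Dbp, Nr1d1, Ciart and the Per genes rise and fall strongly over the day, whereas Clock itself is almost flat in many tissues. Per1 is also induced within minutes to hours by glucocorticoids and by signals that raise cyclic AMP.

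The sequences below are matches to clock elements found upstream of the members, shown because the loop acts through elements of these kinds. Binding at these matches was not measured. The 250 bases upstream of the start of each gene's canonical transcript were read from GRCm39 and searched on both strands for the E-box CACGTG, the D-box TTATGNAA, the RORE core TAGGTCA and the cyclic AMP element TGACGTCA. An E-box was present in 4 of the 10 members (Per1, Ciart, Tef and Cry1), against 6.31% of 21584 protein-coding promoters of that length. A D-box was present in Per2 and Per3, against 3.06% of promoters, and a RORE core in Dbp, against 2.16%. None of the 10 windows held TGACGTCA, which 1.71% of promoters hold, and Nr1d1, Nr1d2 and Clock held none of the searched letters in this window. Each sequence runs 5′ to 3′ on the strand of the gene, with the motif in capitals.
Per1, E-box, in an intron of a longer Per1 transcript, chr11:68989226-68989267, plus strand: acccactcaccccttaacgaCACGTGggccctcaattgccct
Ciart, E-box, in an intron of a longer Ciart transcript, chr3:95789573-95789618, minus strand: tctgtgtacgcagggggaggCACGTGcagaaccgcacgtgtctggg
Ciart, E-box farthest from the start, at or beside an annotated Ciart UTR, chr3:95789641-95789666, minus strand: catctagagtCACGTGttgccggtaa
Tef, E-box, in an intron of a longer Tef transcript and an exon of Gm17597, chr15:81695457-81695502, plus strand: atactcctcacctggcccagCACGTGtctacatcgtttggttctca
Cry1, E-box, at or beside an annotated Cry1 UTR, chr10:85020963-85020988, minus strand: tgccggtggtCACGTGgggtgcatgc
Per2, D-box, in an intron of Gm70796, chr1:91387144-91387191, minus strand: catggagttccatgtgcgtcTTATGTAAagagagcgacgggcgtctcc
Per3, D-box nearest the start, outside annotated transcripts, chr4:151129253-151129300, minus strand: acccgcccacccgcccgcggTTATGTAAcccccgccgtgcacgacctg
Dbp, RORE core, at or beside an annotated UTR of Car11, chr7:45354313-45354339, plus strand: tggccaaataTAGGTCAgtgtcccgcc
Ciart held the most E-boxes of the members, 3 in the window, and the one nearest the start stands in lower case within the first Ciart sequence. Per3 held 2 D-boxes. A match is a description of these letters only.

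Clock genes differed in level among the 4 cell types, and astrocytes had the highest mean of 7 of the 10 members. Levels are given as RPKM, read counts scaled to exon length and jointly to library size over all libraries, so that genes and cell types can be compared. Nr1d1, the REV-ERBα repressor, was the most abundant member in each of the 4 cell types. It averaged 148.5 ± 16.5 RPKM (SD, n = 12) in astrocytes, 61.2 ± 6.76 (n = 11) in OPCs, 26.9 ± 12.0 (n = 8) in oligodendrocytes and 19.6 ± 7.87 (n = 12) in microglia. Of its exon bases 52.3% are shared with Thra, transcribed from the opposite strand, and the strand setting of the counting is not given in the sources used here, so the level of Nr1d1 is uncertain. Dbp, the output activator, was also highest in astrocytes, with 7.60 ± 1.69 RPKM in astrocytes, 2.58 ± 0.57 in OPCs, 1.34 ± 1.115 in oligodendrocytes and 0.863 ± 0.322 in microglia. The plot of RPKM by cell type shows every library.

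**Figure D1:**
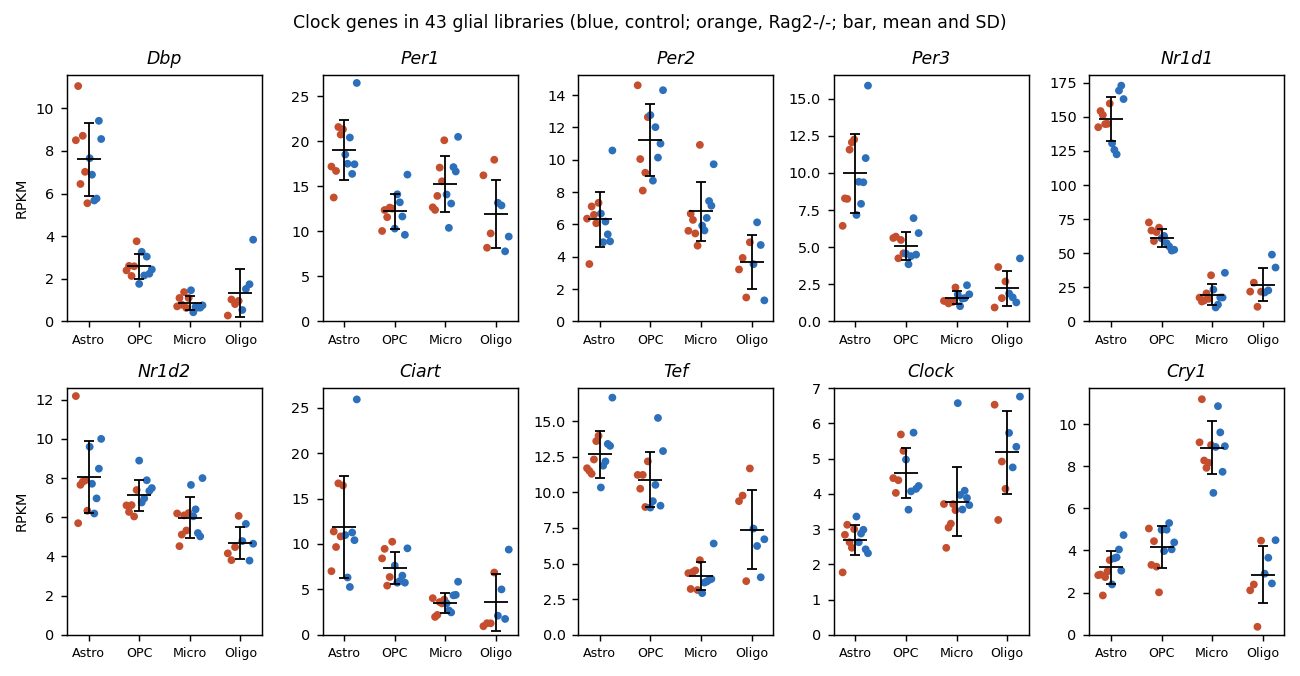
RPKM of each clock gene (vertical axis, from 0) in every library of the 4 cell types (horizontal axis), with control libraries in blue, Rag2-/- libraries in orange, and a bar for the mean and SD over both. Nr1d1, Dbp, Per3 and Ciart are highest in astrocytes, Per2 is highest in OPCs and Cry1 in microglia, and the genotypes are intermingled.

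In the edgeR fit of all 43 libraries with the mouse as a block, Nr1d1 was higher in astrocytes than in microglia by 2.97 ± 0.16 on the log2 scale (SE, adjusted p = 2.81e-18), and Dbp by 3.16 ± 0.26 (adjusted p = 3.26e-13). Between astrocytes and microglia 9 of the 10 members passed an adjusted p of 0.05, 7 higher in astrocytes and 2 higher in microglia, where 69.1% of all 21368 genes passed. The count was 7 of 10 between astrocytes and OPCs (40.7% of genes), 9 of 10 between astrocytes and oligodendrocytes (45.9%) and 10 of 10 between OPCs and microglia (68.5%). It was 7 of 10 both between OPCs and oligodendrocytes (36.4%) and between microglia and oligodendrocytes (65.2%). The median log2 difference of the 10 members between astrocytes and microglia was 1.04, against 0.0829 over all genes tested. In bulk samples such as these, fewer cells expressing a gene and less of its RNA per cell cannot be told apart.

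The members did not share 1 order of cell types. Per3, a weaker relative of Per1 and Per2 in the loop, fell from 9.97 ± 2.68 RPKM in astrocytes through 5.08 ± 0.93 in OPCs to 2.24 ± 1.18 in oligodendrocytes and 1.59 ± 0.43 in microglia, and these last did not differ by the test (adjusted p = 0.0629). Ciart stood at 11.9 ± 5.64 RPKM in astrocytes and 7.36 ± 1.78 in OPCs, with 3.57 ± 3.16 in oligodendrocytes and 3.53 ± 1.10 in microglia (adjusted p = 0.402 between these). Tef measured 12.7 ± 1.65 RPKM in astrocytes and 10.9 ± 1.96 in OPCs, a difference that did not pass (adjusted p = 0.0836), then 7.38 ± 2.78 in oligodendrocytes and 4.11 ± 0.97 in microglia. Nr1d2, the second REV-ERB receptor, spanned only 8.04 ± 1.83 RPKM in astrocytes to 4.67 ± 0.83 in oligodendrocytes, and astrocytes and OPCs did not differ by the test (adjusted p = 0.204).

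The period genes and the core loop had other orders. Per1, the immediate responder among the Per genes, ranged from 19.02 ± 3.31 RPKM in astrocytes through 15.3 ± 3.11 in microglia to 12.2 ± 1.94 in OPCs and 11.9 ± 3.77 in oligodendrocytes, and OPCs and oligodendrocytes did not differ by the test (adjusted p = 0.705). Per2 was highest in OPCs, at 11.2 ± 2.21 RPKM, and did not differ by the test between microglia (6.82 ± 1.82) and astrocytes (6.31 ± 1.72, adjusted p = 0.601). Oligodendrocytes had the lowest Per2, 3.65 ± 1.66 RPKM. Cry1, a repressor of CLOCK and BMAL1, was highest in microglia at 8.87 ± 1.26 RPKM, and higher there than in astrocytes (the fitted log2 difference, astrocyte minus microglia, was -1.49 ± 0.19, adjusted p = 1.91e-08). OPCs (4.16 ± 0.99), astrocytes (3.20 ± 0.77) and oligodendrocytes (2.85 ± 1.36) did not differ from each other in Cry1 by the test, with adjusted p-values of 0.168, 0.463 and 0.0539. Clock, the activator, was lowest in astrocytes at 2.699 ± 0.424 RPKM and stood at 3.78 ± 0.99 in microglia, 4.59 ± 0.72 in OPCs and 5.18 ± 1.18 in oligodendrocytes, and OPCs and oligodendrocytes did not differ by the test (adjusted p = 0.354).

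The smaller differences depended on the fit. The lower Clock of astrocytes than of microglia (-0.46, adjusted p = 0.000829) was lost in Rag2-/- libraries alone (-0.27, adjusted p = 0.208). The higher Clock of OPCs than of microglia (log2 difference 0.29, adjusted p = 0.0326) was lost with DESeq2's size factors (adjusted p = 0.136) and was -0.02 in control libraries alone. The higher Nr1d2 of OPCs than of microglia (0.26, adjusted p = 0.0278) was lost with those factors (adjusted p = 0.14). The lower Nr1d1 of microglia than of oligodendrocytes (-0.41, adjusted p = 0.0391) was 0.01 in Rag2-/- libraries alone. The higher Ciart of astrocytes than of OPCs (0.62, adjusted p = 0.0278) did not pass within controls (0.71, adjusted p = 0.0624). Within Rag2-/- libraries it did not pass either (0.67, adjusted p = 0.178). The higher Per1 of astrocytes than of microglia (0.31, adjusted p = 0.0159) likewise did not pass within controls (0.35, adjusted p = 0.0803). Nor did it pass within Rag2-/- libraries (0.30, adjusted p = 0.115). For Ciart and Per1 the estimates thus kept their size in these smaller fits. The higher Dbp of OPCs than of oligodendrocytes (1.02, adjusted p = 0.00797) was 0.48 within controls (adjusted p = 0.456).

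Of the other genes of the clock, a list of 19, those that passed were more often higher than lower in astrocytes. Between astrocytes and microglia 16 of the 19 passed, 13 of them higher in astrocytes, where 69.1% of all genes passed. Between astrocytes and OPCs 16 passed, 11 of them higher in astrocytes (40.7% of all genes), and between astrocytes and oligodendrocytes 12 passed, 10 of them higher in astrocytes (45.9%). Bhlhe40, the repressor DEC1, averaged 81.1 RPKM in astrocytes and 4.86 in microglia. The nuclear receptor Rorb, which acts on the same elements as the REV-ERBs, averaged 35.4 RPKM in astrocytes and 0.316 in microglia, and Hlf, the third relative of Dbp and Tef, 34.0 and 3.52. Bmal1, the partner of CLOCK, was low throughout, with a mean of 2.10 RPKM in astrocytes and 0.896 in microglia. Nfil3, the repressor that competes with DBP for D-boxes, was higher in microglia, at 3.76 RPKM against 0.975 in astrocytes. These 5 genes were named after their values were seen.

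No clock gene passed the test for genotype in any of the 4 cell types. In edgeR's quasi-likelihood test with sex and genotype as terms, fitted in each cell type, 0 of 10 members passed an adjusted p of 0.05 in astrocytes, OPCs, microglia and oligodendrocytes. Over all genes 0.00679% passed in astrocytes, 0.00592% in OPCs, 0.00667% in microglia and 0% in oligodendrocytes. At an unadjusted p under 0.05 there was 1 member in microglia and 0 in each of the others. Of all genes 2.87% lay under that limit in astrocytes, 4.02% in OPCs, 2.9% in microglia and 3.38% in oligodendrocytes. DESeq2 and limma's voom also called 0 of 10 members in each cell type. The median log2 fold change of the members, Rag2-/- against control, was -0.0348 in astrocytes, -0.0030 in OPCs, -0.0621 in microglia and -0.255 in oligodendrocytes, against medians of 0.00143, -0.00615, -0.00572 and 0.00311 over all genes tested. The precision differed by cell type: standard errors of the members ran from 0.11 to 0.32 in astrocytes, 0.10 to 0.23 in OPCs, 0.13 to 0.36 in microglia and 0.29 to 1.14 in oligodendrocytes.

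**Figure D2:**
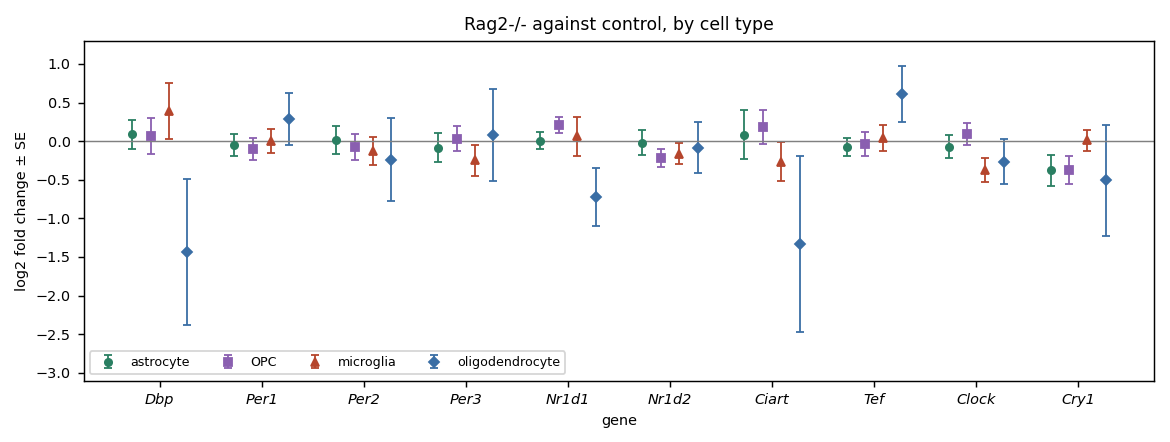
Log2 fold change of each clock gene in Rag2-/- against control libraries (vertical axis, points with SE) for the 4 cell types (symbols), from the edgeR fit with sex and genotype. In astrocytes, OPCs and microglia all points lie between -0.38 and 0.39, and the estimates farthest from 0, Dbp at -1.43 and Ciart at -1.33, are those of oligodendrocytes with the longest error bars.

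Clock in microglia was the 1 member with an unadjusted p under 0.05 for genotype. Its CPM, normalised within the cell type by the trimmed mean of M-values (TMM), had a lowest, median and highest value of 70.7, 78.8 and 133.6 in controls and of 49.4, 67.3 and 74.5 in Rag2-/- microglia. The ranges overlapped, but the Rag2-/- library was the lower one in 6 of 6 pairs, by 0.04 to 0.86 on the log2 scale. The fold change was -0.37 ± 0.15 (log2, SE) with an adjusted p of 0.999 by edgeR, and -0.37 with an adjusted p of 0.968 with the pair as a block. The control of pair 1 was the highest library, and without it the log2 fold change was -0.23 (adjusted p = 0.999 by edgeR). Clock shares 11.9% of its exon bases with Tmem165 on the opposite strand.

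Dbp in oligodendrocytes had the largest fold change, at low counts. Controls of pairs 1, 3, 5 and 6 had 1.11, 3.03, 3.90 and 8.57 CPM and their Rag2-/- littermates 0.569, 2.08, 1.82 and 2.13 CPM. The Rag2-/- library was lower in 4 of 4 pairs, yet the ranges overlapped and rested on 9 to 87 counts a library. Dbp shares 15.5% of its exon bases with Sphk2 on the opposite strand, which had a median of 172 counts a library, so these low counts are uncertain. The fold change was -1.43 ± 0.94 (log2, SE, adjusted p = 0.998 by edgeR). In the same fit 7 of 8 astrocyte markers and 7 of 7 neuron markers had a fold change below 0, with medians of -0.567 and -0.625, and 0 passed. The summed astrocyte markers had a median of 1194 CPM in Rag2-/- oligodendrocytes and 1125 CPM in controls. Dbp is higher in astrocytes than in oligodendrocytes, as given above, and the part of other cells in its difference was not tested. In the other cell types the fold change of Dbp was 0.09 ± 0.19 in astrocytes, 0.07 ± 0.23 in OPCs and 0.39 ± 0.36 in microglia. The genotype effect of Dbp was not different between cell types by the test of the interaction (adjusted p = 0.855 by edgeR), and 0 of 10 members passed that test, which 0.0234% of all genes passed.

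Nr1d1, Nr1d2 and Cry1 differed in 1 direction in most pairs of some cell types without passing. Nr1d1 in OPCs was higher in the Rag2-/- library of 5 of 5 pairs, with 217 to 263 CPM in controls and 231, 272, 275, 278 and 299 CPM in Rag2-/- libraries (log2 fold change 0.21 ± 0.10, adjusted p = 0.9998 by edgeR). Astrocyte markers differed in the same libraries: 8 of 8 had a fold change above 0 in Rag2-/- OPCs, with a median of 0.685 on the log2 scale, and 0 passed by edgeR, with 7 at an unadjusted p under 0.05. Their summed level had a median of 5182 CPM (2976 to 7540) in Rag2-/- OPCs and 3459 CPM (2705 to 4022) in controls, and Nr1d1 is higher in astrocytes than in OPCs, as given above. Their part in the Nr1d1 difference was not tested. Nr1d2 in OPCs was lower in the Rag2-/- library of 5 of 5 pairs, by 0.05 to 0.43 on the log2 scale, without passing. In oligodendrocytes Nr1d1 was 40.9, 42.4, 102.3 and 82.6 CPM in controls and 41.8, 53.6, 22.5 and 44.8 CPM in their littermates, and the littermates of pairs 5 and 6 were the farthest apart. Cry1 was lower in the Rag2-/- library in 5 of 6 pairs of astrocytes, 4 of 5 of OPCs and 4 of 4 of oligodendrocytes, but in 2 of 6 of microglia. Its log2 fold changes were -0.38 ± 0.21, -0.37 ± 0.18, -0.51 ± 0.71 and 0.01 ± 0.13 in the same order, and none passed. Of the 15 to 18 other clock genes tested in each cell type, 0 passed by edgeR, with 1 at an unadjusted p under 0.05 in microglia and 0 elsewhere.

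Sex was likewise not associated with a clock gene past the threshold. In the same fits 0 of 10 members passed in each cell type by edgeR, against 0.0407% of all genes in astrocytes, 0.0296% in OPCs, 0.0467% in microglia and 0.0362% in oligodendrocytes. At an unadjusted p under 0.05 there was 1 member in OPCs and 0 elsewhere. Of all genes 6.73% lay under that limit in astrocytes, 4.3% in OPCs, 3.92% in microglia and 8.23% in oligodendrocytes. DESeq2 called 0 of 10 members in each cell type. The member in OPCs was Cry1, lower in females by the fit (log2 fold change -0.45 ± 0.19, adjusted p = 0.999 by edgeR). Pairs and sex overlap, since both mice of 5 pairs were of 1 sex.

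Of genotype, sex and littermate pair, only the pair gave clock genes past the threshold in the edgeR fits of single cell types. In the F-test of all pair terms, fitted with genotype in each cell type, Nr1d1 passed in microglia (adjusted p = 0.00977 by edgeR) and Per3 in astrocytes (adjusted p = 0.0471). That is 1 of 10 members in each of these cell types, where 0.127% and 0.523% of all genes passed. In OPCs and oligodendrocytes 0 of 10 passed by edgeR, against 0.355% and 0.0362% of genes, and DESeq2 called 0 there too. At an unadjusted p under 0.05 the members numbered 4 in astrocytes, 1 in OPCs, 6 in microglia and 1 in oligodendrocytes, where 13.7%, 10.6%, 9.04% and 8.82% of all genes lay under that limit.

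Nr1d1 in microglia was 134.0 CPM in the control and 128.5 CPM in the Rag2-/- mouse of pair 6. The controls of pairs 1 to 5 had 89.2, 38.7, 46.0, 65.9 and 66.4 CPM, and their littermates 65.2, 55.1, 57.3, 77.4 and 62.8 CPM. Both libraries of pair 6 thus lay above the other 10, and the 4 libraries of pairs 2 and 3 were the lowest. The astrocytes of the same mice showed a narrower spread, with 373 to 545 CPM in controls and 442 to 508 CPM in Rag2-/- mice, and pair 6 had 499.6 and 507.8 CPM, of which the first lay within the range of the other controls. The call in microglia rested on pair 6: without that pair the adjusted p was 0.617, and with sex as a further term it was 0.0513.

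Per3 in astrocytes was highest in the same pair. The controls of pairs 1 to 6 had 74.0, 95.7, 78.0, 96.0, 112 and 157 CPM, and their littermates 67.1, 83.5, 79.4, 119, 119 and 126 CPM. Pairs 1 and 3 were the lowest in both genotypes, and the rank order of the pairs was identical in controls and Rag2-/- mice. Without any single pair the adjusted p of Per3 by edgeR was between 0.0573 and 0.131, so the call was lost each time. The unadjusted p by edgeR was 0.000182 without pair 4, against 0.000236 with all pairs. By limma's voom with quality weights the adjusted p was 0.175.

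Other members followed the pair without passing in the main fit. Per1 in microglia was 127, 92.6, 115.6, 152, 149 and 182 CPM in the controls of pairs 1 to 6 and 112, 110, 123, 152, 139 and 180 CPM in their littermates (adjusted p = 0.155 by edgeR). The 2 libraries of a pair lay closer to each other than to most other pairs, with pair 2 lowest and pair 6 highest in both genotypes. Ciart in astrocytes, a gene with E-boxes in its promoter as printed above, reached 63.9 and 42.0 CPM in pair 6, against 12.9 to 28.7 CPM in the other controls and 18.2 to 42.5 CPM in the other Rag2-/- libraries (adjusted p = 0.135), so that the Rag2-/- mouse of pair 4 was as high as that of pair 6. Per2 in microglia was 74.0 and 84.0 CPM in pair 6 and 35.9 to 56.6 CPM elsewhere (adjusted p = 0.347), so that pair 6 stood clear of the rest. With DESeq2's likelihood ratio test Per2, Per3 and Ciart passed in astrocytes and Nr1d1, Per1 and Per2 in microglia, in fits that called 797 and 239 genes in all, against 77 and 19 by edgeR.

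**Figure D3:**
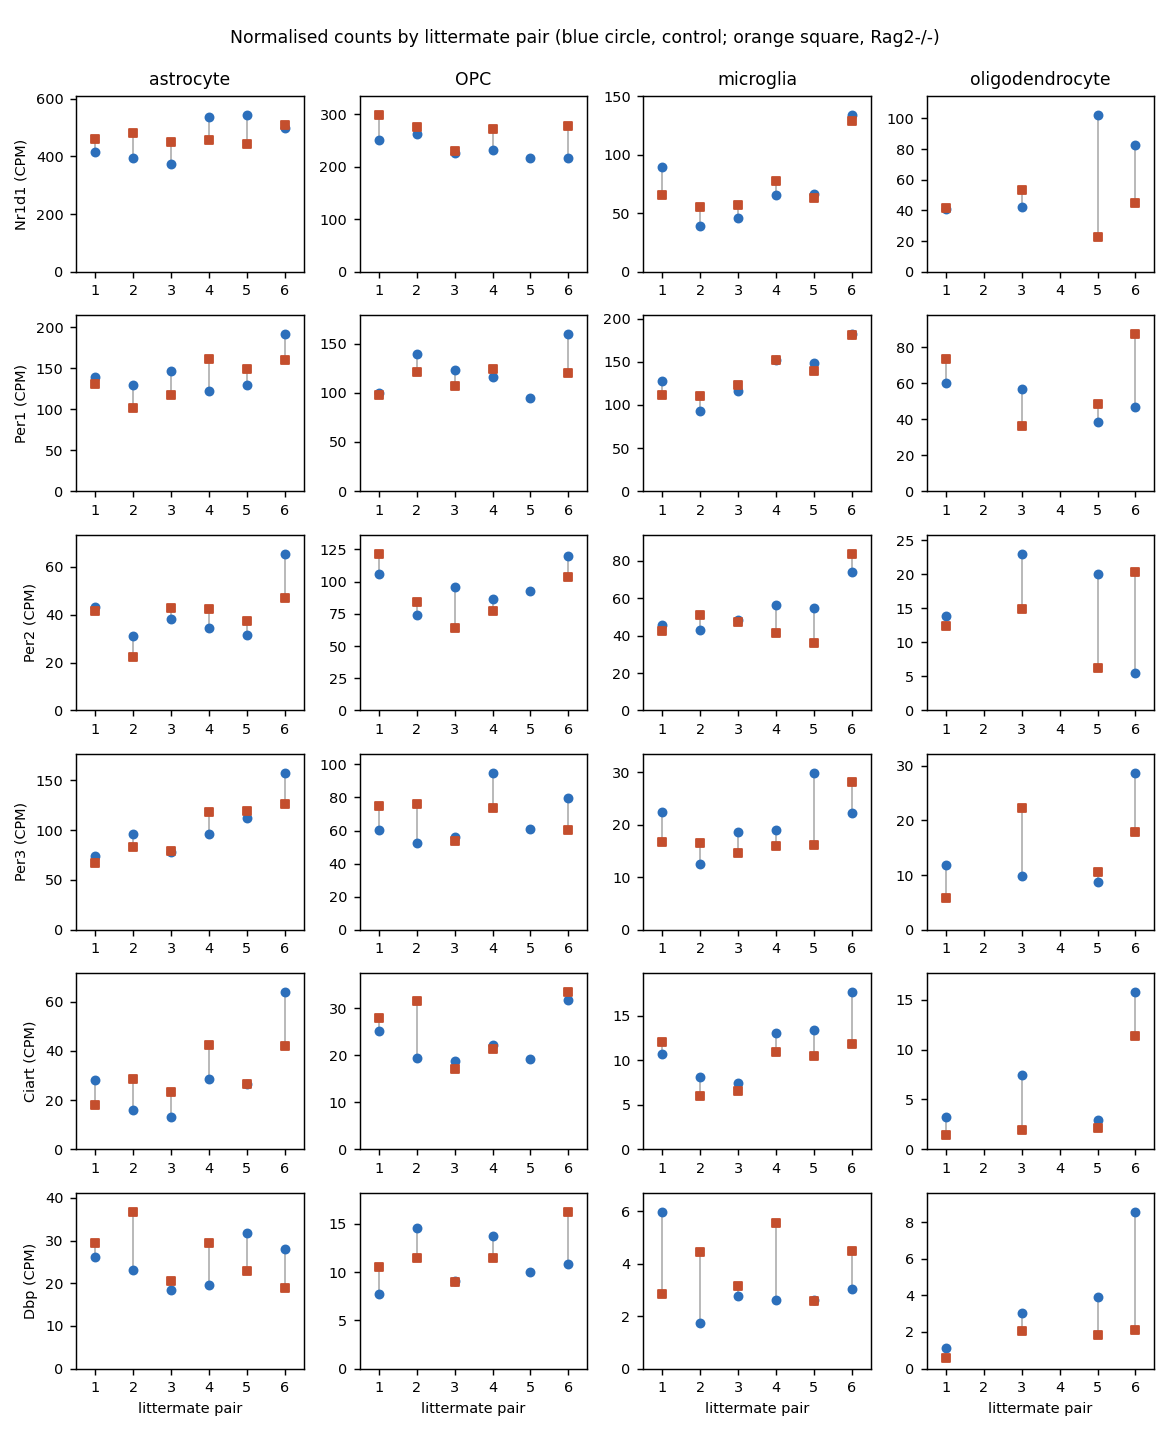
CPM of 6 clock genes (vertical axis, from 0, scaled for each panel) by littermate pair (horizontal axis) in the 4 cell types, with control libraries as blue circles, Rag2-/- libraries as orange squares and a grey line joining littermates. Pair 6 has the highest pair mean for Nr1d1, Per1 and Per2 in microglia and for Per3 and Ciart in astrocytes, but not for Dbp in either of these cell types.

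Dbp, an output gene of the clock, was not highest in pair 6 in astrocytes or microglia. In astrocytes its lowest, median and highest values were 18.5, 24.7 and 31.7 CPM in controls and 18.9, 26.1 and 36.8 CPM in Rag2-/- mice, and pair 6 had 28.1 and 18.9 CPM. The F-test gave an adjusted p of 0.766 in astrocytes and 0.943 in microglia by edgeR. Microglia had only 1.74 to 5.99 CPM of Dbp, from 15 to 61 counts a library, and the control of pair 1 at 5.99 CPM was the highest. In OPCs and oligodendrocytes pair 6 did have the highest pair mean of Dbp, 13.54 and 5.351 CPM, and in oligodendrocytes pair 6 was the highest and pair 1 the lowest pair in both genotypes. The pair test gave an adjusted p of 0.821 in OPCs and 0.811 in oligodendrocytes by edgeR.

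When each mouse was given 1 value, the mean log2 CPM of its astrocytes and microglia, 0 of 10 members passed an adjusted p of 0.05 by limma, where 0.545% of 12472 genes did. At an unadjusted p under 0.05 there were 7 of 10 members, against 13.8% of all genes. These were Nr1d1 (adjusted p = 0.0516 by limma), Per2 (0.0554), Per1 (0.0711), Ciart (0.0856), Per3 (0.0933), Tef (0.268) and Nr1d2 (0.347). Cry1, Dbp and Clock had adjusted p-values of 0.739, 0.924 and 0.941 by limma. Under the same unadjusted limit lay 6 of 11 immediate early and stress genes and 5 of 8 glucocorticoid-responsive genes by limma. So did 7 of 8 microglia markers and 4 of 5 OPC markers, but 2 of 8 astrocyte markers, 2 of 6 neuron markers and 4 of 15 other clock genes. A share above that of all genes was thus not particular to the members. Without pair 1 the adjusted p by limma fell under 0.05 for 4 members, Nr1d1, Per1, Per2 and Ciart. Leaving out another pair raised it to at most 0.372 for Nr1d1, 0.303 for Per1, 0.606 for Per2 and 0.223 for Ciart. With the OPCs and oligodendrocytes of each mouse included the adjusted p of Nr1d1 was 0.694.

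Pair 6 had the highest pair mean for 7 of 10 members in astrocytes, 7 in microglia and 7 in oligodendrocytes, and for 4 in OPCs. Over all genes tested pair 6 was the highest pair for 18.8% in astrocytes, 19.8% in microglia, 26.4% in oligodendrocytes and 14.3% in OPCs. Pair 6 was singled out after the values of these clock genes were seen, so the comparison with all genes is a description only. The members also share libraries and are not independent. Ciart and Tef were highest in pair 6 in each of the 4 cell types, and Ciart there lay above the mean over pairs by 0.93 on the log2 scale in astrocytes, 0.49 in microglia, 0.48 in OPCs and 1.66 in oligodendrocytes. Tef lay above it by 0.28, 0.53, 0.24 and 0.42 in the same order. Nr1d1 lay above by 0.92 in microglia, by 0.13 in astrocytes and by 0.31 in oligodendrocytes, and was at -0.003 in OPCs. Among the members with an E-box in the printed window, Per1, Ciart and Tef were highest in pair 6 in both astrocytes and microglia, and so were Per2, Per3 and Nr1d1, which have none there.

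**Figure D4:**
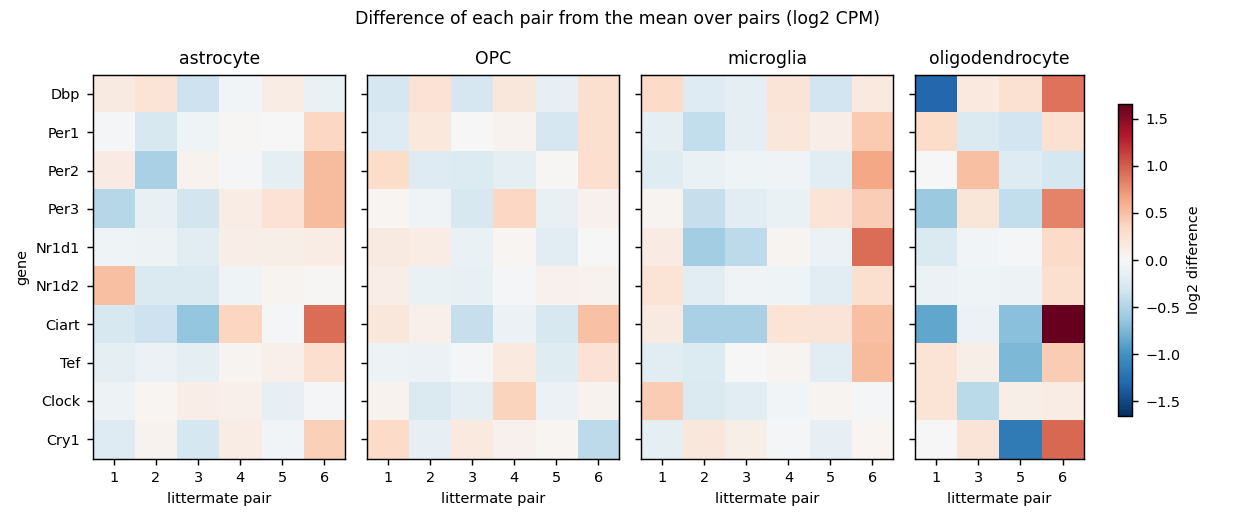
Difference of the pair mean from the mean over pairs (colour, log2 CPM, red above and blue below) for the 10 clock genes (rows) by littermate pair (columns) in the 4 cell types. The column of pair 6 is red for 9 of 10 genes in oligodendrocytes and for most genes in astrocytes and microglia, with the strongest value for Ciart in oligodendrocytes at 1.66.

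Of the immediate early and stress genes, 1 passed the test for the pair. Egr1, a transcription factor induced within minutes by many stimuli, was the gene of the dissociation list with the smallest p-value in both (adjusted p = 0.00791 in astrocytes and 0.0381 in microglia by edgeR), and 1 of 11 genes of that list passed in each. At an unadjusted p under 0.05 the list had 5 of 11 genes in astrocytes and 6 of 11 in microglia by edgeR. In microglia Egr1 was 2214 and 2906 CPM in pair 6 and 1292 to 1903 CPM in the other pairs, so pair 6 was the highest. In astrocytes Egr1 was 140 and 154 CPM in pair 6 and 172 to 361 CPM in the other pairs, so pair 6 was the lowest. The summed dissociation list in microglia was 8884 CPM in the Rag2-/- mouse of pair 6 and 4805 to 6666 CPM in the other 11 libraries, 6568 in the control of pair 6. In astrocytes the summed list was 2062 and 1875 CPM in pair 6 in control and Rag2-/- mouse, 1841 and 1944 CPM in pair 2, and 1999 to 2684 CPM in the other pairs. Of 10 glucocorticoid-responsive genes, Zbtb16 passed in astrocytes (adjusted p = 0.00912), at 34.1 and 32.6 CPM in pair 1 against 5.43 to 12.4 CPM in the others, and 0 of 8 tested passed in microglia by edgeR, with 1 at an unadjusted p under 0.05. In astrocytes 5 of these 10 genes had an unadjusted p under 0.05 by edgeR. The pair mean of Nr1d2 in astrocytes was also highest in pair 1, from 85.4 CPM in the control and 109.6 CPM in the Rag2-/- mouse, while the control of pair 6 had 85.5 CPM. The part of these responses in the pair differences of clock genes was not tested.

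Markers of other cells were measured in the same libraries. Summed astrocyte markers were 311 and 342 CPM in the microglia of pair 6 and 217.5 to 318.3 CPM in those of the other pairs, against 18170 to 22230 CPM in astrocytes. In the F-test of the pair over microglia, 1 of 5 OPC markers passed and 0 of 8 astrocyte, 0 of 6 neuron, 0 of 3 endothelial and 0 of 4 oligodendrocyte markers did by edgeR, with 5, 2, 2, 1 and 1 at an unadjusted p under 0.05. Over all genes 0.127% passed in microglia. In astrocytes 3 of 6 OPC markers, 1 of 8 microglia markers and 1 of 8 oligodendrocyte markers passed, where 0.523% of all genes did. In OPCs 4 of 8 microglia markers and 3 of 8 oligodendrocyte markers passed (0.355% of genes). In oligodendrocytes 1 of 7 neuron markers passed (0.0362%). With 1 value per mouse 2 of 8 microglia markers and 1 of 5 OPC markers passed by limma (0.545%). Summed oligodendrocyte markers in astrocytes were 1305 and 2618 CPM in pair 6 and 1661 to 3441 CPM in the others. Their part in the pair differences was not tested.

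Whether the 2 cell types of a pair moved together was asked over the 6 pair means in astrocytes and microglia. Per1 gave Pearson's r = 0.944 (exact permutation p = 0.00139, the smallest that 720 pairings can give) and Spearman's rho = 1 (exact p = 0.00278). Adjusted over all 12472 genes tested the p-value of r was 0.601, and 0 of all genes passed. Since no exact p can lie below 0.00139, 1 gene alone cannot pass over so many genes. The adjusted p-values therefore cannot decide the question. Without pairs 2 and 6, those farthest from the median in astrocytes, r was 0.925. Ciart gave r = 0.836 (exact p = 0.0417, adjusted p = 0.708) with rho = 0.943 (exact p = 0.0167), and r = 0.814 without pairs 4 and 6. The r of Per2 was 0.712 and that of Tef 0.759, and these fell to 0.12 and -0.04 without their 2 farthest pairs, so they rested on those. Nr1d1 gave 0.678 and Nr1d2 0.631, or 0.372 and 0.397 without their farthest pairs, and Per3 gave 0.647 and Cry1 0.212, while Dbp gave -0.05 and Clock -0.67. In all, r was above 0 for 8 of 10 members with a median of 0.662, against 56.3% of genes and a median of 0.0925 over all genes tested. An r above 0 with an exact p under 0.05 was found for 2 of 10 members and for 4.48% of genes. Both cell types of a pair came from the same 2 suspensions, so the points share the mice and their handling.

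**Figure D5:**
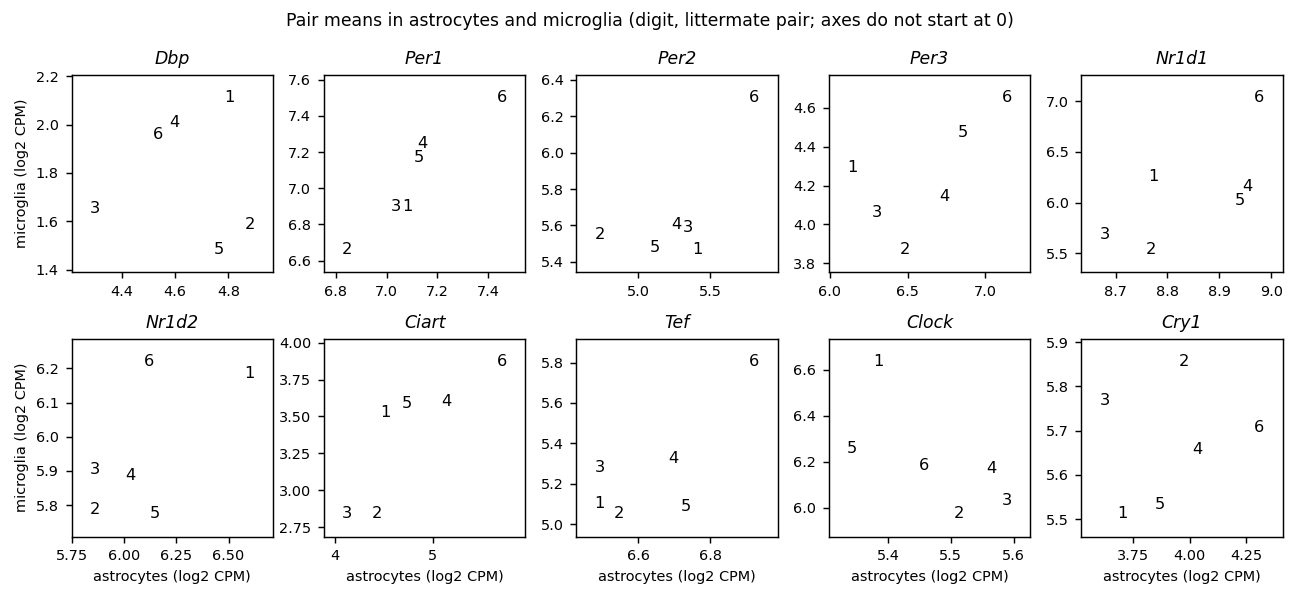
Mean log2 CPM of the 2 libraries of each littermate pair in astrocytes (horizontal axis) and in microglia (vertical axis) for the 10 clock genes, with each pair drawn as its number and axes that do not start at 0. Per1 orders the 6 pairs identically in both cell types (rho = 1), pair 6 is the highest pair on both axes for 6 of the 10 genes, and Clock runs from upper left to lower right.

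Between littermates within a cell type the same question has 1 control and 1 Rag2-/- library in each of 6 pairs. In microglia Per1 gave r = 0.901 (exact permutation p = 0.0181) and rho = 0.943 (exact p = 0.0167), with 0.807 without pairs 2 and 6. Nr1d1 gave r = 0.862 (exact p = 0.0139), which was 0.450 without its 2 farthest pairs, and Ciart r = 0.838 (exact p = 0.0431), which was 0.80, with rho = 0.543. In astrocytes Per3 gave r = 0.832 (exact p = 0.0292) and rho = 1 (exact p = 0.00278), and 0.764 without the 2 farthest pairs. Over 20 relations, 10 in each cell type, 4 had an exact p under 0.05. Once adjusted over all genes tested 0 passed, with adjusted p-values of 0.674 or more. Here too the smallest exact p of 720 pairings, 0.00139, is too large for 1 gene alone to pass over so many genes. The adjusted values therefore do not decide the question. The r was above 0 for 8 of 10 members in each cell type, where 63.1% of all genes in astrocytes and 59.4% in microglia had an r above 0. An r above 0 with an exact p under 0.05 was found for 1 of 10 members in astrocytes and 3 of 10 in microglia, against 5.42% and 3.95% of all genes.

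The libraries of oligodendrocytes and OPCs gave less. In oligodendrocytes Ciart was 3.26, 7.47, 2.93 and 15.8 CPM in the controls of pairs 1, 3, 5 and 6 and 1.45, 1.93, 2.13 and 11.3 CPM in their littermates, from 21 to 160 counts a library. Pair 6 was the highest in both genotypes (adjusted p = 0.556 by edgeR). Per3 in oligodendrocytes had pair 6 highest in controls, at 28.7 CPM against 8.66 to 11.8 CPM, but not in Rag2-/- libraries, where pair 3 had 22.3 and pair 6 had 17.9 CPM. Per2 in oligodendrocytes differed most between littermates of pair 6, with 5.52 CPM in the control and 20.4 CPM in the Rag2-/- library. In OPCs Ciart was 31.7 and 33.4 CPM in pair 6 against 17.04 to 31.4 CPM in the other pairs, which was the highest pair in controls and in Rag2-/- libraries. Per1 in OPCs was 160 CPM in the control of pair 6 and 119.8 CPM in its littermate, the latter within the 97.8 to 124.0 CPM of the other Rag2-/- libraries.

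The genes most like Dbp were sought over all 43 libraries, after taking the mean of each cell type and genotype from the log2 CPM. Of 11503 genes, Atp5pb (r = 0.735), Commd2 (0.657) and the processed pseudogenes Gm7536 (0.626) and Gm8292 (0.62) were among those with the highest Pearson's r to Dbp. Among the members the highest were Per3 at 0.492, at rank 89, Ciart at 0.419 and Nr1d1 at 0.416, and Per2 was at -0.19. The points share libraries, their depth and the few counts of Dbp in oligodendrocytes and microglia, and the r is a description.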

How the data were processed

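RNA of each library was sequenced in paired 50-base reads. According to the study's methods and the submitters' processing notes, the authors aligned reads to GRCm39 with STAR 2.7.8a and deposited raw counts per Ensembl 104 gene from HTSeq 0.13.5, and counts are the only unit used. Groups, sex and pair numbers came from the labels. The clock genes were picked by name, and they and the lists were chosen with earlier results of these data known. In edgeR 4.0.16 (R 4.3.3), genes were filtered by filterByExpr (minimum count 10), scaled by TMM and tested by quasi-likelihood for genotype, sex and pair in each cell type, with Benjamini-Hochberg adjustment over all genes tested. One value per mouse was tested with limma 3.58.1. DESeq2 1.42.0 and voom were alternatives. Exact permutation p-values of the 30 relations over pairs were adjusted over all genes rather than over the 10 members as first planned. RPKM used exon lengths of GENCODE M39. Log2 CPM used a prior count of 2. Littermates were paired by the study's design. Their deviations from group means correlated on average at 0.17 in astrocytes, 0.138 in OPCs and 0.116 in microglia and oligodendrocytes. Other mice gave -0.0373 to -0.0236, a value that largely follows from that of littermates, since deviations from a group mean cancel within the group. All 10 members were named, with other clock genes named where they passed for genotype, sex or pair, up to 4 response genes by pair p-value, and the 5 genes most like Dbp, of which 1 is not reported here. The lists held clock genes, dissociation and glucocorticoid responses, and markers of cell types. Procedures were tested on simulated data.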

Additional observations from a re-analysis of the deposited data

Results flagged for a closer look

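In 13 of 80 groups of 4 to 6 libraries, a clock gene had 1 library farther from the rest than Dixon's 95% limit, and each was the highest of its group. The limit was applied to CPM without a log, and about 5% of groups would pass it if values were normally distributed. The share of groups over all genes was not computed, so the count cannot be read as particular to clock genes. Of the 13, 9 were in pair 6. In astrocyte controls of pair 6 these were Ciart at 63.91 CPM, Per1 at 191.7 CPM and Per2 at 65.61 CPM. In Rag2-/- microglia of pair 6 they were Nr1d1 at 128.5 CPM, Per2 at 83.96 CPM and Per3 at 28.09 CPM, and in its control microglia Tef at 61.3 CPM. In oligodendrocytes of pair 6 they were Ciart at 11.34 CPM in the Rag2-/- library and Per3 at 28.68 CPM in the control. The other 4 were Clock at 133.6 CPM and Dbp at 5.987 CPM in control microglia of pair 1, Nr1d2 at 109.6 CPM in Rag2-/- astrocytes of pair 1 and Cry1 at 64.61 CPM in Rag2-/- microglia of pair 2. The 10 genes share libraries, so these groups are not independent.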

How the results depend on the processing

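Counts of clock genes past the threshold were recomputed 233 times under the alternatives, and 219 stayed within 1.5 times of the value given above. Counts of 0 that stayed at 0 are among these 219, and they include every count for genotype and sex, so the share says little about stability. The pair effect moved most, with 8 of 12 counts outside that range in astrocytes and 4 of 12 in microglia. In astrocytes 1 gene passed, against 3 with no filter, 3 with DESeq2's likelihood ratio test, 0 with voom and 0 to 1 leaving out each pair, and the 1 gene without pair 1 was Ciart. In microglia 1 gene passed, against 3 with no filter, 3 with the likelihood ratio test, 0 with sex as a further covariate and 0 to 1 leaving out each pair. Over mice 0 passed, against 0 to 4 leaving out each pair. Between microglia and oligodendrocytes 7 passed, against 3 in Rag2-/- libraries alone. The cause was not tested. Clock between OPCs and microglia reversed in controls alone (-0.0168), as did Nr1d1 between microglia and oligodendrocytes in Rag2-/- libraries alone (0.0123). With the pair as a replicate block, all 80 genotype estimates of clock genes kept their side of the threshold (lowest adjusted p = 0.968), as did all 790 refits (0.816). All-gene counts for the pair ranged from 16 to 1009 in astrocytes (77 as given), 0 to 1057 in OPCs (60), 4 to 365 in microglia (19), 0 to 612 in oligodendrocytes (5) and 0 to 105 over mice (68). For genotype they ranged from 1 to 30, 1 to 90, 1 to 9 and 0 to 205 in the same order of cell types, and for sex from 5 to 118, 5 to 72, 7 to 25 and 3 to 432. DESeq2's size factors shifted the clock genes of the set by a median of 0.103 on the log2 scale between astrocytes and OPCs, where Nr1d2 and Tef then passed (adjusted p = 0.0375 and 0.0124). Dbp in oligodendrocytes, at 9 to 87 counts a library, is the member most limited by depth.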
